A study of Danio rerio with 7 samples.

Results

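Genes of the circadian clock were examined in cells sorted from adult zebrafish hearts at 2 stages after cryoinjury, a freezing injury of the ventricle. The members were all gene IDs whose zebrafish name was nr1d1, nr1d2, per1, per2, per3, cry1, clock, bmal1, npas2 or hlf, in any case and with or without a final paralog letter a or b. All 10 names were found, and they took 16 of the 31388 gene IDs in the table. Fish carried postnb:CreERT2, a Cre recombinase driven by regulatory sequence of the periostin gene postnb and switched on by 4-hydroxytamoxifen (4-OHT), together with the reporter ubb:loxP-GFP-loxP-mCherry. Every fish received 10 µM 4-OHT at 3 and 4 days post injury (dpi), and mCherry-positive cells of the ventricular apex were sorted from 4 pools at 7 dpi (replicates 1, 2, 3 and 4) and from 3 pools at 60 dpi (replicates 1, 2 and 4). The fish were 3 to 9 months old, and each pool held 3 to 5 hearts. The mark is permanent, so it follows descendants of cells that used postnb around the time of treatment, whatever they express later. The strain, the sex, the light cycle and the hour at which hearts were taken are not given in the sources used here. The 2 stages therefore differ in days after injury, in time since 4-OHT and possibly in the phase of the day, and these cannot be told apart.

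The vertebrate clock is a loop of transcription and repression. In its positive arm CLOCK, or its relative NPAS2, pairs with BMAL1 on E-box elements and switches on the genes of the negative arm, whose PER and CRY proteins return to the nucleus and block the pair. REV-ERB proteins, encoded by nr1d1 and nr1d2, form a second negative arm that represses bmal1, and output factors such as HLF carry the rhythm to other genes. In zebrafish, clocks run in peripheral tissues, the heart included, and light can set them directly, with per2 among the genes that light induces.

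Levels are given in TPM, RSEM's scaled transcript abundance, which is corrected for length, sums to the same total in every library and keeps no record of read depth, so levels of different genes may be compared but the depth behind each value is unknown. Libraries held between 9844 and 15431 gene IDs with a TPM of at least 1, and replicate 4 of each stage held the fewest. For the counts that follow, 3.20% of all tested IDs were higher and 3.68% lower at 60 dpi by limma. Fibroblast markers were present throughout, with a summed level of 6308 to 8688 TPM at 7 dpi and 6887 to 8549 TPM at 60 dpi, and none of their 14 IDs was at 0 in all libraries. Within that list 3 of 14 IDs were higher at 60 dpi, those of PDGFRA, DCN and DPT, and 2 were lower, POSTN (ENSDARG00000104267) and FN1 (ENSDARG00000019815). Macrophage and leukocyte markers were also present, at 9487 to 13330 TPM and 2539 to 5415 TPM, with 17 of 25 tested IDs lower at 60 dpi and none higher. Lymphocyte markers summed to 185 to 680.0 TPM and 16.6 to 118 TPM, with 4 of 7 lower, and neutrophil markers to 245 to 394 TPM and 24.3 to 69.4 TPM, with 2 of 6 lower. Cardiomyocyte markers ranged from 384 to 901 TPM and from 401 to 4547 TPM, with 1 of 14 higher and 1 TNNT2 ID at 0 in every library, and endothelial markers from 17.5 to 136 TPM and from 99.4 to 153 TPM, with none of 8 passing. Erythrocyte markers spanned 3199 to 7187 TPM and 686 to 6104 TPM, with none of 7 passing. Immediate early and dissociation stress genes summed to 4286 to 9625 TPM at 7 dpi and to 40280 to 49090 TPM at 60 dpi, with 18 of 31 higher and none lower. The part of other cell types, of stress genes and of library complexity in the clock results was not tested, and in sorted pools fewer cells of a type and less RNA per cell cannot be told apart.

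Log2 fold changes, 60 minus 7 dpi, of the tested clock gene IDs ran from -0.70 to 3.34, and the members were not tested as a set. The REV-ERB gene nr1d2a and the output gene hlfa were higher at 60 dpi, no member was lower by the test, and the remaining 12 tested IDs did not pass. The test was limma on log2(TPM + 1), with Benjamini-Hochberg adjustment across the 15130 IDs that reached 1 TPM in 3 or more libraries, at a threshold of 0.05. Of the 16 IDs 14 met that minimum, and the second IDs of PER1 and HLF did not. By the test 2 of 14 were higher, beside 3.20% of all tested IDs, and 0 of 14 were lower, beside 3.68%, which makes 2 of 14 in either direction, beside 6.88%. At an unadjusted p under 0.05, 6 of 14 were higher and none was lower, beside 9.60% and 12.4% of all tested IDs. In the same 6 IDs, nr1d2a, hlfa, PER2, npas2, and 1 ID each of CRY1 and BMAL1, every pool at 60 dpi lay above every pool at 7 dpi, beside 10.3% of all tested IDs, and in no tested member did 60 dpi lie wholly below. The median log2 fold change, 60 minus 7 dpi, was 0.82 over the 14 IDs and -0.04 over all tested IDs, and it was above 0 in 10 of 14, beside 48.3% of all tested IDs. Of the 14 IDs 10 reached 1 TPM in all 7 libraries and 4 in 6 libraries.

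**Figure D1:**
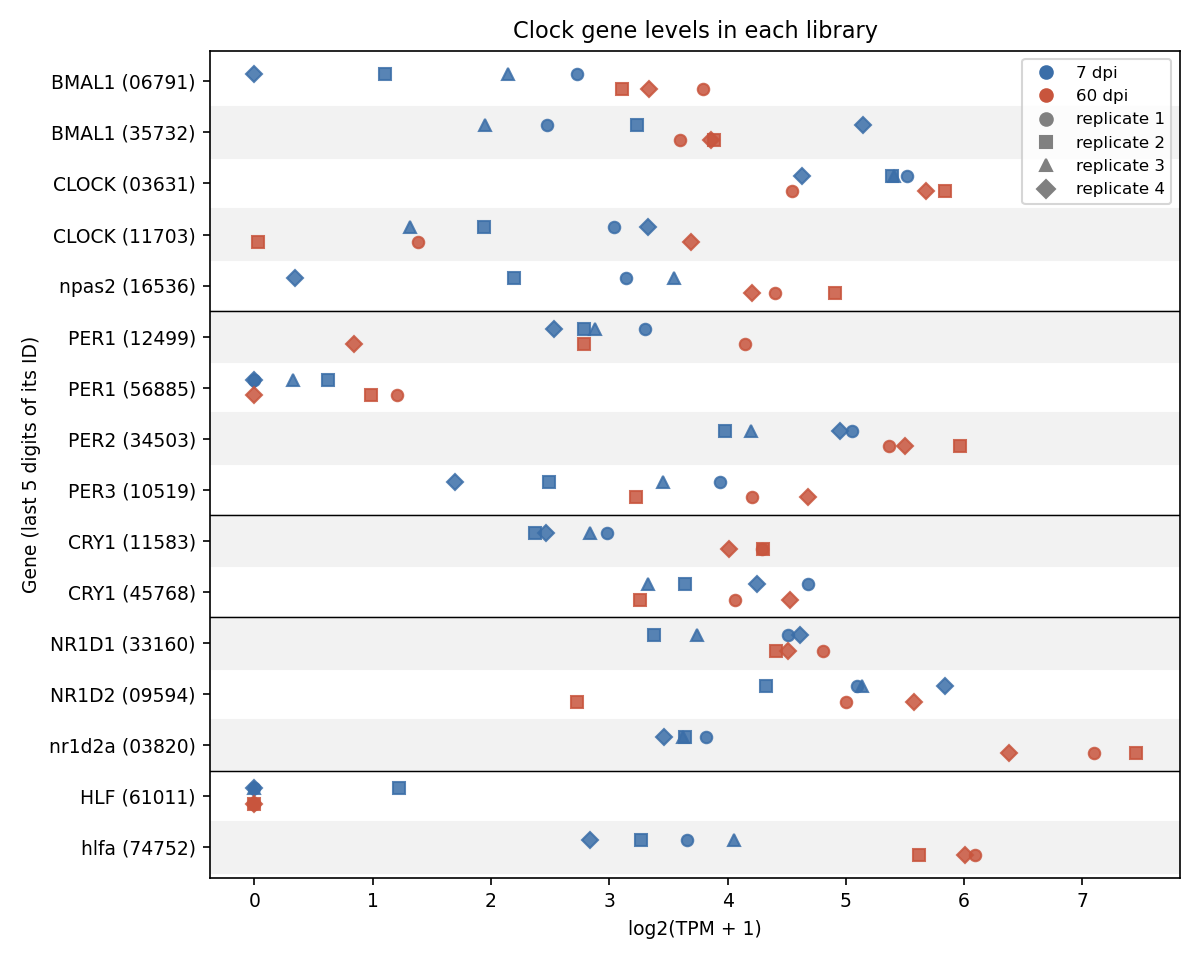
Level of each of the 16 clock gene IDs, as log2(TPM + 1) on the horizontal axis, in 4 pools at 7 dpi (blue) and 3 pools at 60 dpi (red), with marker shapes for replicate numbers and lines between the positive arm, PER, CRY, REV-ERB and output genes. The colours separate fully for nr1d2a, hlfa, PER2, npas2, the upper CRY1 ID and the upper BMAL1 ID, and overlap for the other 8 tested IDs.

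CLOCK, whose protein is the DNA-binding partner of BMAL1, was carried mainly by 1 of its 2 IDs. CLOCK (ENSDARG00000003631) measured 44.8, 41.0, 41.3 and 23.8 TPM in the 7 dpi pools, against 22.4, 56.1 and 50.2 TPM in the 60 dpi pools. The stages overlapped, since 60 dpi replicate 1 was the lowest pool of all and the other 60 dpi pools were the highest. Its log2 fold change was 0.12 (with SE 0.45 and limma adjusted p = 0.921), with a 95% interval of -0.87 to 1.10. The second, CLOCK (ENSDARG00000011703), measured 7.22, 2.84, 1.49 and 9.01 TPM in the 7 dpi pools, against 1.61, 0.02 and 11.9 TPM in the 60 dpi pools, so that 60 dpi held both its highest and its lowest pool. With both IDs summed, an addition made after the data were examined because RSEM shares reads among similar transcripts, CLOCK had 42.9 ± 7.86 TPM at 7 dpi (SD, n = 4) and 47.4 ± 20.5 TPM at 60 dpi (SD, n = 3).

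npas2, whose protein can stand in for CLOCK beside BMAL1, measured 7.84, 3.57, 10.7 and 0.27 TPM in the 7 dpi pools, against 20.1, 29.1 and 17.4 TPM in the 60 dpi pools. Every pool at 60 dpi was above every pool at 7 dpi, yet the spread at 7 dpi was wide. The log2 fold change was 2.20 ± 0.83 (SE) and did not pass (limma adjusted p = 0.142), and its 95% interval ran from 0.40 to 3.99. Without 7 dpi replicate 4, the pool at 0.27 TPM, the log2 fold change was 1.54 (adjusted p = 0.134).

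BMAL1, the partner shared by CLOCK and NPAS2, was low, and its 2 IDs differed in how they were spread. BMAL1 (ENSDARG00000006791) measured 5.62, 1.15, 3.42 and 0.00 TPM in the 7 dpi pools, against 12.9, 7.60 and 9.07 TPM in the 60 dpi pools, with no overlap between stages. Its log2 fold change of 1.92 ± 0.88 (SE) did not pass (limma adjusted p = 0.226). BMAL1 (ENSDARG00000035732) measured 4.55, 8.39, 2.86 and 34.4 TPM in the 7 dpi pools, against 11.1, 13.8 and 13.5 TPM in the 60 dpi pools. The single high value came from 7 dpi replicate 4, the same pool in which the other BMAL1 ID was listed at 0 and which held the fewest detected IDs. With that pool the log2 fold change was 0.58 (with SE 0.79 and adjusted p = 0.735), and without it 1.23 (adjusted p = 0.278). Summed over both IDs, BMAL1 measured 10.2, 9.54, 6.28 and 34.4 TPM in the 7 dpi pools, against 24.0, 21.4 and 22.6 TPM in the 60 dpi pools, a log2 fold change of 0.84 (with SE 0.61 and adjusted p = 0.469). The 3 pools at 60 dpi lay close together, and those at 7 dpi fell on either side of them.

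Among the period genes, whose proteins form the repressor complex with cryptochromes, PER2 was the most abundant at both stages. PER2 measured 32.2, 14.8, 17.4 and 29.8 TPM in the 7 dpi pools, against 40.2, 61.5 and 44.3 TPM in the 60 dpi pools. The stages did not overlap, with a log2 fold change of 1.07 ± 0.45 (SE) that did not pass (limma adjusted p = 0.185) and a 95% interval of 0.09 to 2.04. It passed under 1 of 21 alternatives, with libraries weighted by their quality (adjusted p = 0.0494). PER3 measured 14.3, 4.63, 9.96 and 2.23 TPM in the 7 dpi pools, against 17.4, 8.36 and 24.7 TPM in the 60 dpi pools, with overlap through 60 dpi replicate 2 and a log2 fold change of 1.14 (with SE 0.74 and adjusted p = 0.402).

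PER1, a period gene that also responds to hormones and stress in mammals, scattered widely at 60 dpi. PER1 (ENSDARG00000012499) measured 8.84, 5.88, 6.34 and 4.79 TPM in the 7 dpi pools, against 16.7, 5.89 and 0.79 TPM in the 60 dpi pools. Its 60 dpi pools spanned both extremes, and the log2 fold change was -0.28 (with SE 0.87 and limma adjusted p = 0.899) and 0.59 without 60 dpi replicate 4 (adjusted p = 0.733). PER1 (ENSDARG00000056885) was below the minimum, between 0.00 and 0.54 TPM at 7 dpi and between 0.00 and 1.3 TPM at 60 dpi, and was not tested. Libraries made from 0.2 to 0.6 ng of RNA can miss transcripts at such levels, so a listed 0 need not mean absence.

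CRY1, a light-insensitive repressor in mammals and present in zebrafish as several copies, had 2 IDs under this name. CRY1 (ENSDARG00000011583) measured 6.91, 4.18, 6.14 and 4.53 TPM in the 7 dpi pools, against 18.6, 18.7 and 15.1 TPM in the 60 dpi pools. Both stages were tight and did not overlap, and the log2 fold change of 1.53 ± 0.61 (SE) did not pass (limma adjusted p = 0.163), with a 95% interval of 0.20 to 2.86. CRY1 (ENSDARG00000045768) measured 24.7, 11.4, 9.03 and 18.0 TPM in the 7 dpi pools, against 15.7, 8.57 and 22.0 TPM in the 60 dpi pools. Here the stages covered the same range, with a log2 fold change of -0.03 (with SE 0.58 and adjusted p = 0.989) and a 95% interval of -1.30 to 1.25. The name table does not say which zebrafish cry1 copy each ID is.

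The REV-ERB genes encode nuclear receptors that bind haem and repress bmal1 and other genes, and nr1d2a was the member with the largest fold change. nr1d2a (ENSDARG00000003820) measured 13.1, 11.5, 11.3 and 10.0 TPM in the 7 dpi pools, against 136, 174 and 82.4 TPM in the 60 dpi pools. The 7 dpi pools lay close together, and the lowest 60 dpi pool was far above the highest of them. The gene rose by 3.34 on the log2 scale (SE 0.42, limma adjusted p = 0.00106), a 10.1-fold change of TPM + 1, with a 95% interval of 2.42 to 4.25. It passed under all 21 alternatives, with adjusted p between 0.000149 and 0.0196.

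The other REV-ERB IDs did not pass. NR1D2 (ENSDARG00000009594) measured 33.3, 19.0, 34.1 and 56.2 TPM in the 7 dpi pools, against 31.0, 5.63 and 46.8 TPM in the 60 dpi pools. It was above nr1d2a in each 7 dpi pool and below it in each 60 dpi pool, and its log2 fold change was -0.66 (with SE 0.66 and limma adjusted p = 0.621), or 0.19 without 60 dpi replicate 2 (adjusted p = 0.898). RSEM shares reads among similar transcripts, and the part of this in the split between nr1d2a and NR1D2 (ENSDARG00000009594) was not tested. NR1D1, the best known REV-ERB gene, measured 21.8, 9.37, 12.4 and 23.5 TPM in the 7 dpi pools, against 27.1, 20.2 and 21.8 TPM in the 60 dpi pools, a log2 fold change of 0.52 (with SE 0.52 and adjusted p = 0.622) with overlapping stages. Summed over both NR1D2 names, the level averaged 47.1 ± 14.6 TPM at 7 dpi (SD, n = 4) and 158.5 ± 26.1 TPM at 60 dpi (SD, n = 3) and rose, with a log2 fold change of 1.77 (with SE 0.35 and adjusted p = 0.0118). The sum passed under 17 of 20 alternatives, and not when 60 dpi replicate 2 was left out (adjusted p = 0.0531), when the fit had no mean-variance trend (adjusted p = 0.091) or with a replicate block (adjusted p = 0.093).

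HLF is a transcription factor of the PAR bZIP family, which in mammals acts downstream of the clock on D-box elements. hlfa (ENSDARG00000074752) measured 11.6, 8.62, 15.7 and 6.16 TPM in the 7 dpi pools, against 67.3, 48.0 and 63.2 TPM in the 60 dpi pools. The lowest 60 dpi pool was well above the highest 7 dpi pool. The gene rose by 2.45 on the log2 scale (SE 0.48, limma adjusted p = 0.0116), a 5.46-fold change of TPM + 1, with a 95% interval of 1.40 to 3.50. It passed under 20 of 21 alternatives, with adjusted p between 0.00756 and 0.0597. HLF (ENSDARG00000061011) was listed at 0 in all pools except 7 dpi replicate 2, at 1.33 TPM, and was not tested. The immediate early and dissociation stress list, summed to 4286 to 9625 TPM at 7 dpi and 40280 to 49090 TPM at 60 dpi, separated the stages in the same direction as nr1d2a and hlfa, and its part in these changes was not tested. A short glucocorticoid list did so too, at 86.7 to 135 TPM and 756 to 1141 TPM. It held FKBP5, KLF9, tsc22d3, ZBTB16, zbtb16b, the glucocorticoid receptor gene NR3C1 and the cortisol enzyme gene HSD11B2. By limma 5 of its 7 IDs were higher, beside 3.20% of all tested IDs, and none was lower, beside 3.68%. This list was chosen with earlier results of these data known and does not hold every gene that responds to the hormone. PER1 (ENSDARG00000012499), which responds to hormones and stress in mammals, is not in it and did not pass. Its log2 fold change was -0.28 (limma adjusted p = 0.899). The part of this list was not tested either.

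**Figure D2:**
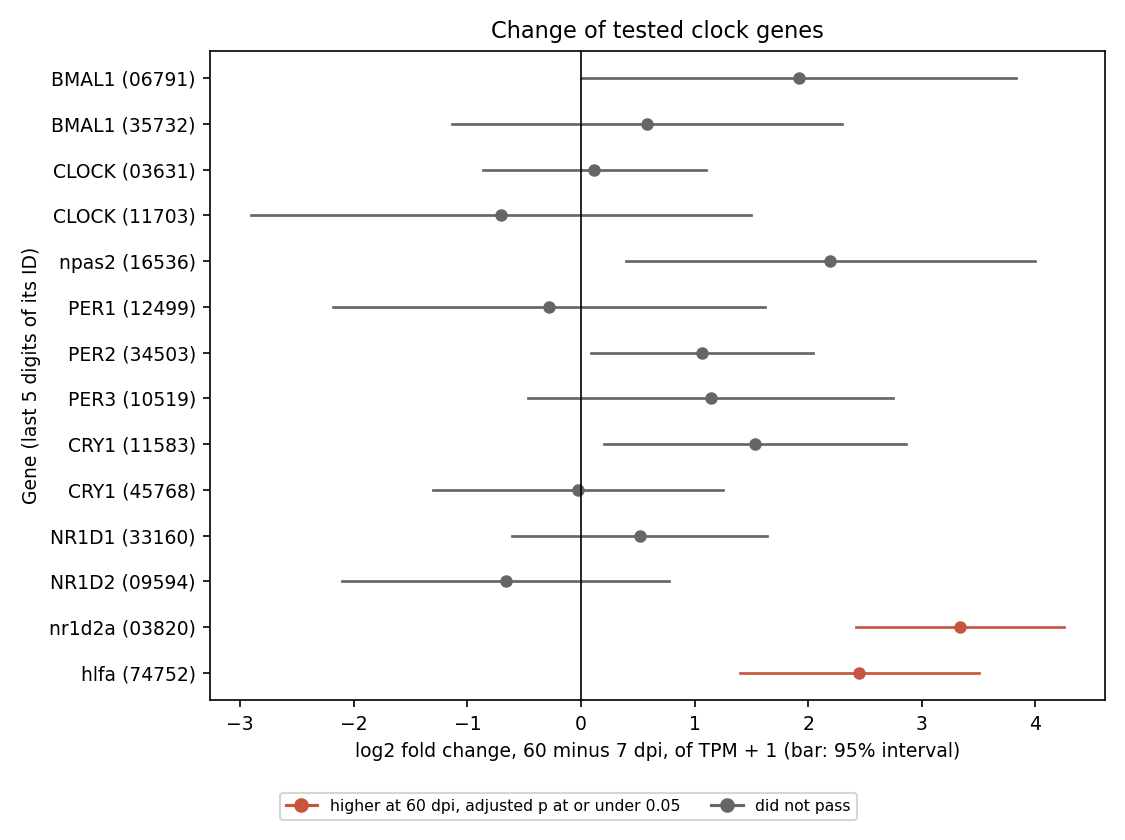
Log2 fold change of TPM + 1, 60 minus 7 dpi, for the 14 tested clock gene IDs (points) with 95% intervals from limma (bars), red where the adjusted p passed. Only nr1d2a at 3.34 and hlfa at 2.45 passed, and the intervals of the other 12 IDs are shown in grey.

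At 7 dpi the highest mean was that of CLOCK (ENSDARG00000003631), at 37.7 ± 9.43 TPM (SD, n = 4), followed by NR1D2 (ENSDARG00000009594) at 35.6 ± 15.3 TPM and PER2 at 23.5 ± 8.76 TPM. Next came NR1D1 at 16.8 ± 6.93 TPM, CRY1 (ENSDARG00000045768) at 15.8 ± 7.05 TPM and BMAL1 (ENSDARG00000035732) at 12.6 ± 14.8 TPM, and neighbours among these 6 differed by less than the larger of their SDs. nr1d2a at 11.5 ± 1.27 TPM and hlfa at 10.5 ± 4.09 TPM came seventh and eighth of the 16. At 60 dpi nr1d2a was first at 131 ± 46.0 TPM (SD, n = 3) and hlfa was second at 59.5 ± 10.2 TPM. PER2 at 48.6 ± 11.3 TPM and CLOCK (ENSDARG00000003631) at 42.9 ± 18.0 TPM followed, and neighbours among these 3 differed by less than the larger of their SDs.

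IDs were also summed by role. The 3 REV-ERB IDs summed to 68.2, 39.9, 57.9 and 89.7 TPM in the 7 dpi pools, against 194, 199.8 and 151 TPM in the 60 dpi pools. The 4 PER IDs summed to 55.4, 25.8, 33.9 and 36.9 TPM in the 7 dpi pools, against 75.6, 76.8 and 69.8 TPM in the 60 dpi pools. In these roles every 60 dpi pool was above every 7 dpi pool. Of their single IDs, only nr1d2a and PER2 separated the stages, and all the others overlapped. The CLOCK and npas2 IDs together measured 59.8, 47.4, 53.6 and 33.1 TPM in the 7 dpi pools, against 44.1, 85.2 and 79.5 TPM in the 60 dpi pools, and the CRY1 IDs 31.6, 15.6, 15.2 and 22.6 TPM and 34.3, 27.2 and 37.1 TPM, both with overlap. These sums are a description, with no test.

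**Figure D3:**
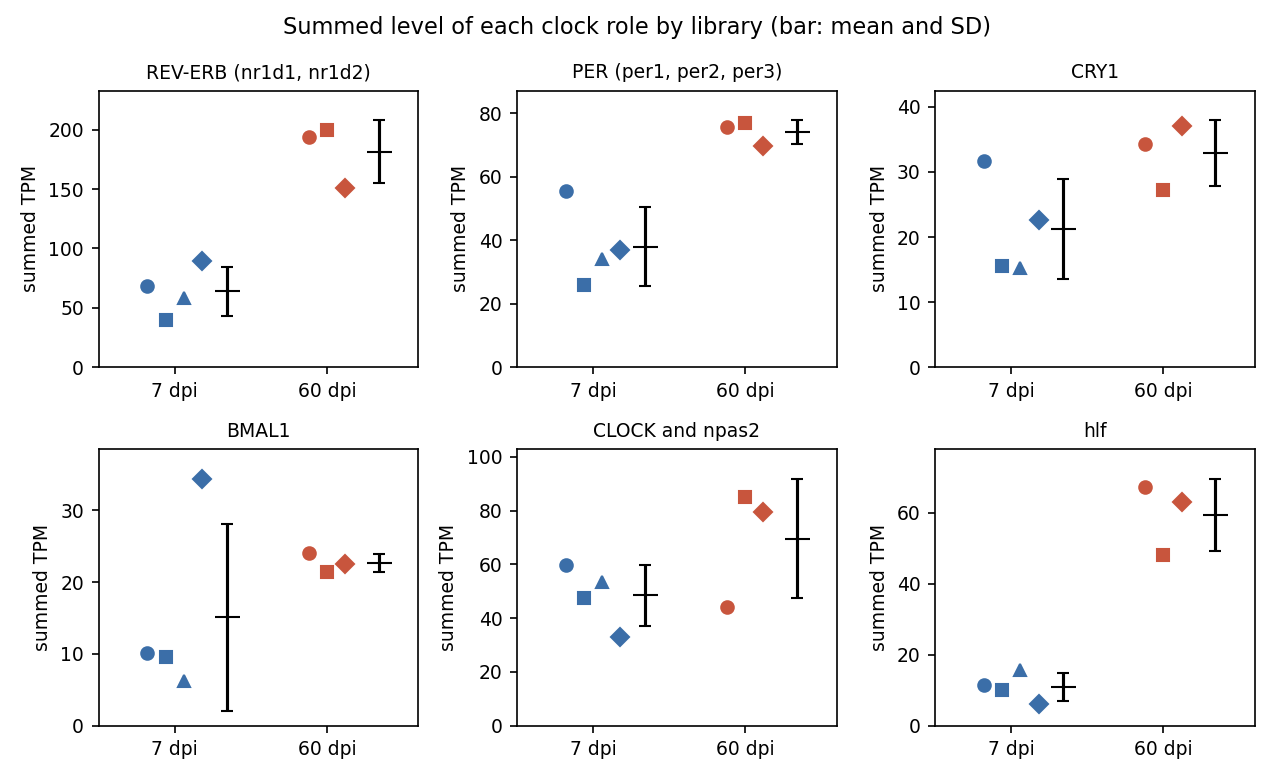
Summed TPM of the IDs of each clock role, per pool, at 7 dpi (blue) and 60 dpi (red), with marker shapes for replicate numbers (circle 1, square 2, triangle 3, diamond 4) and the mean and SD in black. The stages separate for the REV-ERB, PER and hlf sums and overlap for CRY1, BMAL1 (through 7 dpi replicate 4 at 34.4 TPM) and CLOCK with npas2.

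Ratios between the arms within a library were also taken. The log2 ratio of REV-ERB to BMAL1 sums was 2.63, 1.96, 3.02 and 1.36 at 7 dpi and 2.96, 3.16 and 2.69 at 60 dpi. The stages overlapped through 7 dpi replicate 3, with means of 2.24 ± 0.73 (SD, n = 4) and 2.94 ± 0.24 (SD, n = 3). Their difference, 0.70, became 0.40 without 7 dpi replicate 4 and 0.96 without 7 dpi replicate 3. The log2 ratio of PER to BMAL1 sums was 2.34, 1.35, 2.26 and 0.10 at 7 dpi and 1.62, 1.795 and 1.59 at 60 dpi, where the 60 dpi pools lay inside the 7 dpi range. Its difference between stage means, 0.16, became -0.32 without 7 dpi replicate 4 and 0.43 without 7 dpi replicate 1. The log2 ratio of PER to the CLOCK and npas2 sums was -0.11, -0.85, -0.64 and 0.15 at 7 dpi and 0.77, -0.15 and -0.19 at 60 dpi, again with overlap. Leaving out single libraries moved its difference between means, 0.51, to between 0.20 and 0.68, and leaving out replicate 4 of both stages moved it to 0.84.

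Zebrafish keep duplicate copies of many clock genes, and 4 names had 2 tested IDs each. In each pair the ID with the larger log2 fold change was placed over the other. Every difference of means over all 7 pools is therefore positive by that choice. For the pair nr1d2a over NR1D2 (ENSDARG00000009594), the log2 ratio of TPM + 1 within a pool was -1.28, -0.68, -1.51 and -2.37 at 7 dpi and 2.10, 4.72 and 0.80 at 60 dpi. The sign of the ratio differed between the stages in all 7 pools, and the difference of means was 4.00, with an exact permutation p of 0.0571 (two-sided, 35 splits), the smallest this design can give, and 0.229 adjusted over the 4 pairs. For CRY1 (ENSDARG00000011583) over CRY1 (ENSDARG00000045768) the ratio was -1.70, -1.26, -0.49 and -1.78 at 7 dpi and 0.23, 1.04 and -0.52 at 60 dpi, which just overlapped (difference of means 1.56, exact permutation p = 0.114, adjusted 0.229). The BMAL1 and CLOCK pairs had differences of 1.33 and 0.82 with wide overlap (exact permutation p = 0.571 for each), and that of BMAL1 was 0.19 without 7 dpi replicate 4, while that of CLOCK was -0.26 without 60 dpi replicate 2. With 4 against 3 pools this permutation test cannot go below 0.0571, so a p above 0.05 does not show that the copies of a pair moved alike. The part of read sharing among similar transcripts in these ratios was not tested.

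**Figure D4:**
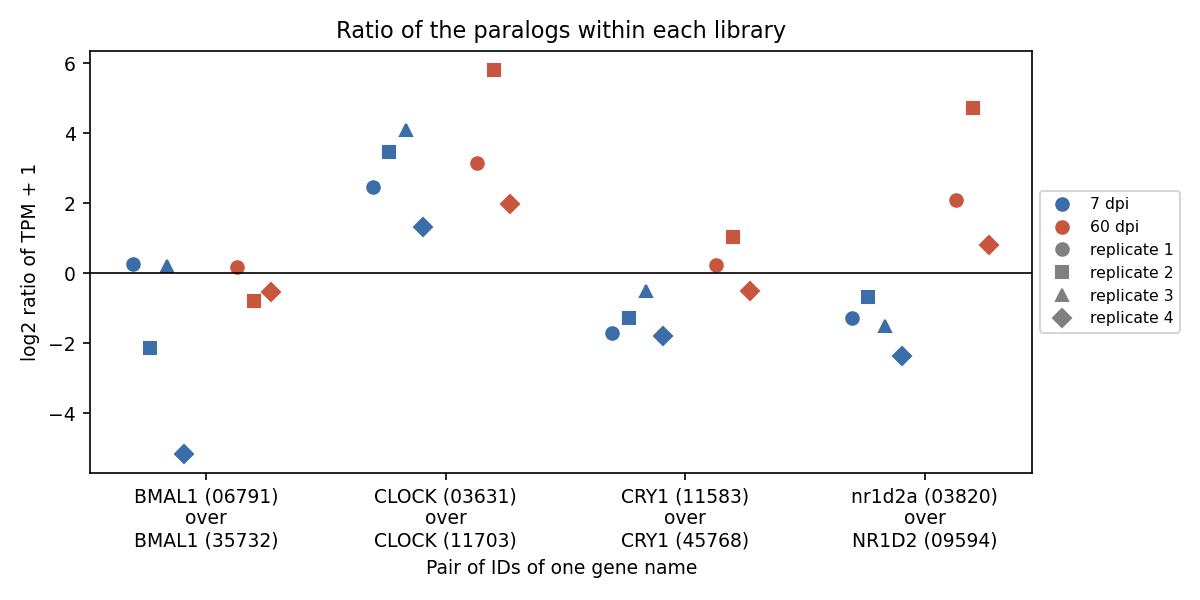
Log2 ratio of TPM + 1 of 2 IDs of one gene name within each pool, at 7 dpi (blue) and 60 dpi (red), with marker shapes for replicate numbers. The nr1d2a to NR1D2 ratio is below 0 in the 4 pools at 7 dpi and above 0 in the 3 pools at 60 dpi, and the other pairs overlap.

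The wider clock machinery was examined as a list of 51 IDs chosen by role. Of 47 tested IDs 3 were higher, beside 3.20% of all tested IDs, and 1 was lower, beside 3.68%, with a median log2 fold change of 0.58 against -0.04 for all tested IDs. Groups did not overlap in 11 IDs with 60 dpi above and in 5 with 60 dpi below, beside 10.3% and 11.0% of all tested IDs. Without 7 dpi replicate 2, 7 dpi replicate 3, 60 dpi replicate 1 or 60 dpi replicate 2 the higher count was 1, and without 60 dpi replicate 4 the lower count was 2.

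The NFIL3 genes encode bZIP repressors that compete with HLF and its relatives for D-box elements. nfil3-6 measured 25.7, 25.5, 44.3 and 27.4 TPM in the 7 dpi pools, against 214, 162 and 128 TPM in the 60 dpi pools, and rose by 2.42 on the log2 scale (SE 0.37, limma adjusted p = 0.00315). nfil3-5 measured 13.01, 6.77, 6.97 and 16.3 TPM in the 7 dpi pools, against 50.1, 52.8 and 29.2 TPM in the 60 dpi pools, and rose by 1.98 on the log2 scale (SE 0.53, adjusted p = 0.0429). The stages were apart for both genes, but the nfil3-5 call was lost under 11 of 21 alternatives, including without each of 7 dpi replicates 1, 2 and 3 and 60 dpi replicates 1 and 2, where the adjusted p lay between 0.0592 and 0.152. NFIL3 itself measured 0.51, 5.30, 2.95 and 0.15 TPM in the 7 dpi pools, against 18.1, 30.7 and 5.53 TPM in the 60 dpi pools and was not called (adjusted p = 0.119).

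BHLHE40 and BHLHE41, also known as DEC genes, encode repressors that bind E-boxes in competition with CLOCK and BMAL1. BHLHE41 measured 224, 140.3, 170.4 and 189 TPM in the 7 dpi pools, against 37.7, 28.8 and 78.4 TPM in the 60 dpi pools, and fell by 1.99 on the log2 scale (SE 0.38, limma adjusted p = 0.0101). It passed under 19 of 21 alternatives, with adjusted p between 0.00217 and 0.0818, and the highest of these came without the mean-variance trend. BHLHE40 measured 119, 91.2, 93.7 and 179.6 TPM in the 7 dpi pools, against 29.6, 45.5 and 70.2 TPM in the 60 dpi pools, with no overlap and a log2 fold change of -1.33 ± 0.40 that did not pass (adjusted p = 0.0663). In the same libraries macrophage and leukocyte markers summed to 9487 to 13330 TPM at 7 dpi and to 2539 to 5415 TPM at 60 dpi. The part of those cells in these values was not tested.

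Among genes acting on clock proteins, USP2, a deubiquitinating enzyme gene, measured 14.97, 3.39, 6.04 and 3.97 TPM in the 7 dpi pools, against 24.9, 69.4 and 34.02 TPM in the 60 dpi pools. It rose by 2.51 on the log2 scale (SE 0.64, limma adjusted p = 0.0375), a call lost under 11 of 21 alternatives, including without any single library other than 7 dpi replicate 1, where the adjusted p lay between 0.054 and 0.168. The casein kinase genes CSNK1D and csnk1da, whose products phosphorylate PER proteins, averaged 109 and 92.8 TPM in the 7 dpi pools, against 162 and 159 TPM in the 60 dpi pools, without passing (adjusted p = 0.283 and 0.171). The cryptochrome gene cry3b measured 12.3, 12.04, 10.6 and 19.9 TPM in the 7 dpi pools, against 31.4, 49.2 and 50.7 TPM in the 60 dpi pools, with no overlap and an adjusted p of 0.061. Its paralog cry3a overlapped, at 27.0 to 77.35 TPM at 7 dpi and 56.8 to 86.4 TPM at 60 dpi (limma adjusted p = 0.381). CRY2 went the other way, at 16.3 to 27.5 TPM at 7 dpi and 11.4 to 15.8 TPM at 60 dpi. Its stages did not overlap, and its log2 fold change of -0.54 did not pass (limma adjusted p = 0.591). Of the 15 loop partners none was higher by limma, beside 3.20% of all tested IDs, and 1, BHLHE41, was lower, beside 3.68%. At an unadjusted p under 0.05, 1 loop partner was higher and 2 were lower, beside 9.60% and 12.4% of all tested IDs. None of the 6 tested light-responsive genes passed in either direction by limma, beside 6.88% of all tested IDs, with 0 at an unadjusted p under 0.05, beside 22.0%. That list does not hold every gene that light induces. It leaves out all members, among them the light-induced gene PER2 and the CRY1 IDs, and genes placed in the other lists, such as nfil3-6 and BHLHE40. PER2 separated the stages, with a limma unadjusted p of 0.0346 and an adjusted p of 0.185. The part of light in these values was not tested.

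**Figure D5:**
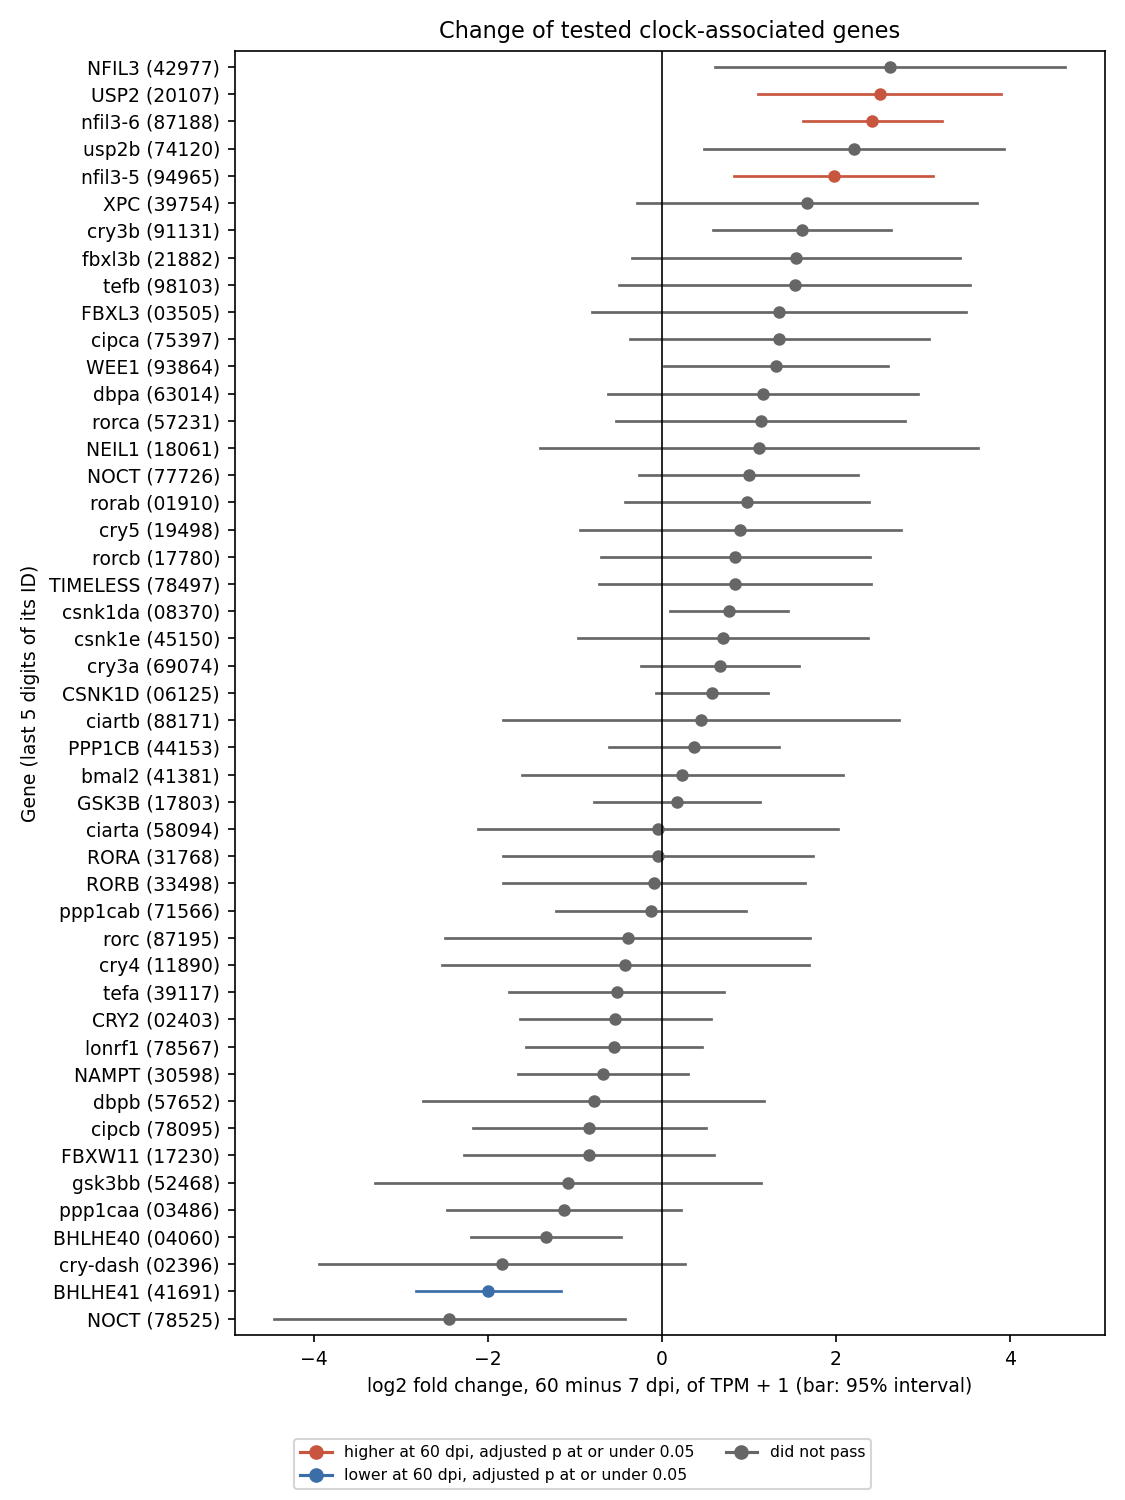
Log2 fold change of TPM + 1, 60 minus 7 dpi, for the 47 tested clock-associated IDs (points) with 95% intervals from limma (bars), red for higher and blue for lower where the adjusted p passed. USP2, nfil3-6 and nfil3-5 are red, BHLHE41 is blue at -1.99, and most intervals include 0.

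The genes whose pattern was most like that of a clock gene were ranked by the root mean square difference of log2(TPM + 1), each centred on its own mean, over the 7 libraries. Nearest to nr1d2a were thbs2a, a thrombospondin gene, at 0.27, FOSL1 at 0.31 and dap1b at 0.33 log2 units. Nearest to hlfa were hbegfa at 0.19, ecm1b at 0.21 and GLUL (ENSDARG00000100003) at 0.23 log2 units. The root mean square of the members themselves around their means was 1.68 for nr1d2a and 1.27 for hlfa. It was smaller for PER2 (0.66), CRY1 (ENSDARG00000045768) (0.53) and CLOCK (ENSDARG00000003631) (0.46), so distances are not comparable between roles. For the other roles the nearest genes were PTPN21, tpm4a and tspan5b for PER2, at 0.16 to 0.17 log2 units. elavl1a, SSR4 and RAN were nearest to CRY1 (ENSDARG00000045768), at 0.14 to 0.19 log2 units, and RASSF3, SLC25A3 and ppp2cb to CLOCK (ENSDARG00000003631), at 0.14 to 0.15. The ranking had 5785 candidates and is a description over 7 libraries that share their stages.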

How the data were processed

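The authors deposited 1 table of TPM values covering 31388 gene IDs and 7 libraries. CASAVA 1.8.2, cutadapt and RSEM 1.2.25 were used with genome build Zv9, per the submitters' processing notes, and the aligner and annotation release are not given in the sources used here. Per the labels' protocols, RNA was amplified from 0.2 to 0.6 ng and read as 60 nt single reads.

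IDs were named with the supplied name table (82.6% have a symbol), which does not always tell paralogs apart. Groups and replicate numbers came from the titles. limma 3.58.1 in R 4.3.3, with a mean-variance trend, was fitted to log2(TPM + 1) of the 15130 IDs that reached 1 TPM in 3 or more libraries, two-sided, with Benjamini-Hochberg adjustment over all of them at 0.05. The fit was tested on simulated data drawn with independent normal errors. Those data held no loss of transcripts from low input and no shared reads, so the check does not cover them. Sums of IDs by name and paralog ratios were added after the data were seen, and the ratios were compared with exact permutation tests over 35 splits. The 95% intervals come from limma. Nothing says that pools came from separate experiments, so p-values measure the spread between these pools. Python 3.11.15, pandas 2.3.3, numpy 2.4.6, scipy 1.17.1 and matplotlib 3.10.9 made the tables and figures.

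The members and lists were chosen with earlier results of these data known. Named genes were all members, clock-associated IDs past the threshold, and for the most abundant member of each role the 3 most similar non-members with a mean of at least 10 TPM and an informative symbol. BHLHE40, NFIL3, CSNK1D, csnk1da, cry3b, cry3a, CRY2 and the fibroblast markers past the threshold were named after their values were seen. Alternatives covered scaling, pseudocounts, filters, variance models, a replicate block and single libraries. No sequences are shown, and no genome was used here.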

Additional observations from a re-analysis of the deposited data

Results flagged for a closer look

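In 27 sets of 4 values at 7 dpi that were checked for a sample standing apart, 2 did, where chance gives about 1 in 20. HLF (ENSDARG00000061011) was at 1.33 TPM in 7 dpi replicate 2 and at 0 in the other 3 pools. With the other 3 at 0, any value above 0 stands apart by this rule, so the rate of 1 in 20 does not apply to it. nfil3-6 was at 44.3 TPM in 7 dpi replicate 3, above 25.5 to 27.4 TPM in the other 3, and all 60 dpi pools were higher still.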

How the results depend on the processing

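Of the 2 clock calls, nr1d2a passed under all 21 alternatives and hlfa under 20, and both passed without any single library and without replicate 4 of both groups. Deviations of same-numbered pools from their stage means had correlations of 0.0054, 0.0145 and 0.028. Those of differently numbered pools lay between -0.0237 and 0.019. All were near 0, and with so few pools they cannot show whether the numbers pair the samples. With a replicate block, hlfa had an adjusted p of 0.0597 and the summed NR1D2 IDs one of 0.093, 1 member was higher, clock-associated counts were 1 higher and 0 lower, and all-ID counts were 133 and 189 in place of 484 and 557. All-ID counts were 266 and 330 with no low value filter and 186 and 291 with no mean-variance trend, and 938 were lower with array quality weights. With 1 library left out they ranged from 209 to 472 higher and from 298 to 709 lower. Clock-associated counts were 5 higher and 2 lower with quantile normalization and with array quality weights. They were 1 higher with a pseudocount of 0.1, with no filter and with no trend (then 0 lower). They were 2 lower with TPM rescaled over IDs with a symbol, without IDs of identical values, and without replicate 4 of both groups. With 1 library left out they ranged from 1 to 3 higher and from 1 to 2 lower. IDs without a symbol held 20.2% to 40% of TPM at 7 dpi and 15.8% to 19.2% at 60 dpi. Rescaling over IDs with a symbol moved the median log2 fold change of all tested IDs from -0.04 to -0.27. It moved that of the clock members from 0.82 to 0.585, so the sizes of clock changes depend on the scaling.

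Signs of members that did not pass were less stable. CLOCK (ENSDARG00000003631) turned to -0.15 and -0.12 with the same rescalings, -0.12 with array weights, -0.25 without replicate 4 of both groups and between -0.12 and 0.52 without 1 library. Summed CLOCK IDs turned to -0.041 with quantile normalization, -0.22 over IDs with a symbol, -0.13 with array weights and -0.32 without replicate 4 of both groups, and ranged from -0.20 to 0.47 without 1 library. PER1 (ENSDARG00000012499) turned to 0.13 with array weights and 0.48 without replicate 4 of both groups, and ranged from -1.06 to 0.59 without 1 library. Summed PER1 IDs turned to 0.063 with quantile normalization, 0.010 with a pseudocount of 5, 0.19 with array weights and 0.58 without replicate 4 of both groups, with a range of -1.004 to 0.70. CRY1 (ENSDARG00000045768) turned to 0.20 with array weights and ranged from -0.31 to 0.32. NR1D2 (ENSDARG00000009594) ranged from -1.23 to 0.19, CLOCK (ENSDARG00000011703) from -1.70 to 0.13 and the CLOCK pair from -0.26 to 1.65. The causes were not tested. TPM keeps no depth, so what depth limits cannot be stated.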
